A study of Pinus pinaster with 6 samples.

Results

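The 3 transcripts described here encode enzymes that move amino nitrogen in maritime pine (Pinus pinaster) roots. They are pp_167571, an L-asparaginase (PpASPG), pp_201570, an alanine aminotransferase (AlaAT), and pp_201990, an alanine-glyoxylate aminotransferase of the AGT2 type. They were chosen by their identifiers in the root transcriptome, so they are 3 of the 46658 transcripts in the deposited table. One-month-old seedlings of a single seed source were irrigated with 80 mL of water (control, libraries C1 to C3) or with 80 mL of 3 mM NH4Cl (ammonium, libraries N1 to N3), and roots were collected 24 h later. According to the labels the experiment was repeated independently, but which library came from which run is not said, so p-values measure the spread between these libraries. Poly(A) RNA was read as native molecules by Oxford Nanopore direct RNA sequencing. No mutant or transgenic plant was used, and the 2 groups differ in the irrigation given. Values are counts per 1e+06 reads (CPM), that is, the reads assigned to a transcript, scaled for the reads of the library.

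Asparaginase releases ammonium from asparagine and leaves aspartate, and asparagine is a main storage and transport form of nitrogen in conifers. Alanine aminotransferase exchanges an amino group between alanine and 2-oxoglutarate, giving pyruvate and glutamate, and the reaction is reversible. Alanine-glyoxylate aminotransferase passes the amino group of alanine to glyoxylate, giving pyruvate and glycine, and like the other aminotransferases it uses pyridoxal phosphate as cofactor.

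The study's oligonucleotides for asparaginase are shown because they were assigned to different forms of this enzyme. Its qPCR primers were assigned to pp_167571, whereas the oligonucleotides of SELECT, an elongation and ligation assay, were assigned to another form, pp_167572. SELECT was designed for a methylated adenosine, but the study also used it for putative modifications of cytidine and uridine. The names of these SELECT oligonucleotides carry U and 1459. All are 20 bases long, given 5′ to 3′, and for SELECT only the part that the primer list sets apart from the adapter is printed.
qPCR forward, pp_167571: ccctgccaggttcacttaaa
qPCR reverse, pp_167571: atcagttggagaccgcagtt
SELECT up, pp_167572: aaaagttaagtccagcacca
SELECT down, pp_167572: gtcgtaacagacgttttccg
The values of the 2 forms differ in the sequencing data as described below.

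Depth differed between libraries. In each library all CPM were whole multiples of a single value, that of 1 read. The reads recovered in this way ranged from 1270378 in C1 to 5416076 in N3, a 4.26-fold range, and 1 read was worth 0.767 CPM in C1 and 0.178 CPM in N3. C1 had the lowest mean correlation with the other libraries of its group (Pearson r of 0.936 against 0.948 to 0.966 in the other 5 libraries). Of 3 root marker transcripts none was at 0 in any library, with summed levels of 305 to 409 CPM in control and 369 to 399 CPM in ammonium libraries. The 8 photosynthesis transcripts listed as shoot markers were also detected in every library, with summed levels of 562 to 752 CPM in control and 470 to 639 CPM in ammonium libraries, and their part in the results below was not tested. In bulk RNA, fewer cells of a type and less RNA per cell cannot be told apart.

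The asparaginase transcript pp_167571 was more abundant in every ammonium library than in any control library. Its level was 60.6 CPM in C1, 83.9 CPM in C2 and 72.4 CPM in C3. Under ammonium it was 91.6 CPM in N1, 130 CPM in N2 and 122 CPM in N3. The groups did not overlap, but N1 lay closer to C2 than to the other ammonium libraries. The counting intervals of that neighbouring pair, exact Poisson intervals at 95% that cover counting error only, were 75.9 to 92.4 CPM for C2 and 81.2 to 103 CPM for N1 and overlapped. The mean level over the control roots was 72.3 ± 11.6 CPM and over the ammonium roots 115 ± 20.4 CPM (SD, n = 3), a ratio of means of 1.59.

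The alanine aminotransferase transcript pp_201570 was the least abundant of the 3. It reached 9.21 CPM in C1, 17.0 CPM in C2 and 19.4 CPM in C3. Under ammonium it was at 23.7 CPM in N1, 27.1 CPM in N2 and 25.5 CPM in N3. The ammonium libraries lay close together and above all control libraries, while C1 was far below the other control libraries. The C1 value rests on 12 reads, with a counting interval of 4.76 to 16.1 CPM, and the other libraries hold 73 to 143 reads. The mean was 15.2 ± 5.34 CPM in control and 25.4 ± 1.69 CPM in ammonium roots (SD, n = 3), a ratio of means of 1.67.

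The alanine-glyoxylate aminotransferase transcript pp_201990 was at 57.5 CPM in C1, 66.9 CPM in C2 and 60.7 CPM in C3. Under ammonium its level was 102 CPM in N1, 97.7 CPM in N2 and 85.9 CPM in N3. No library of either group approached the other group: the counting interval of the highest control library, C2, ended at 74.5 CPM and that of the lowest ammonium library, N3, began at 78.4 CPM. The mean was 61.7 ± 4.75 CPM in control and 95.3 ± 8.43 CPM in ammonium roots (SD, n = 3), a ratio of means of 1.54.

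**Figure D1:**
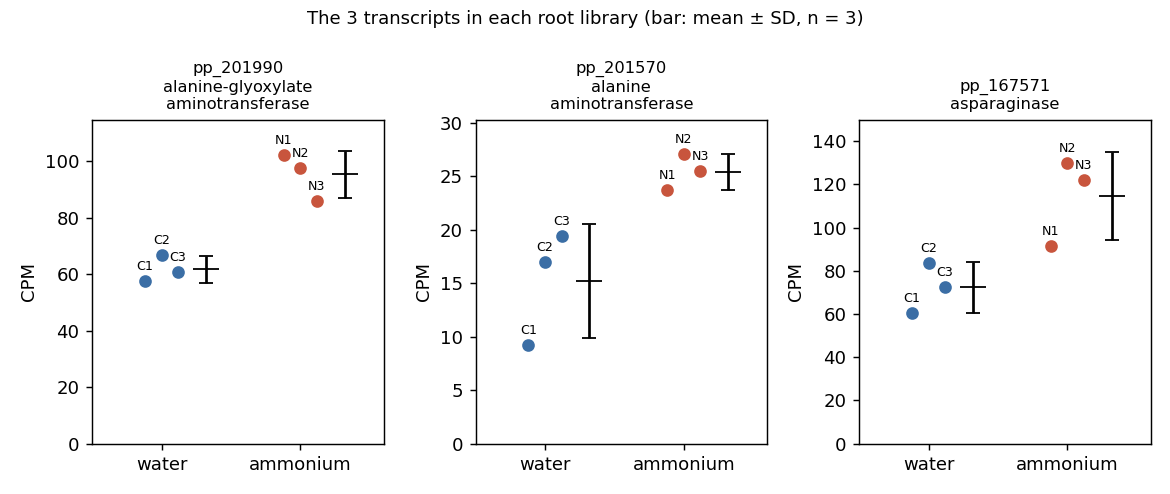
Level of the 3 transcripts in each library (CPM on the y axis, 1 point a library, blue for water and red for ammonium, black bars for the mean ± SD of 3 libraries). In each panel all ammonium points lie above all control points, for example 85.9 to 102 CPM against 57.5 to 66.9 CPM for pp_201990, and C1 is the lowest point for all 3 transcripts.

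All 3 transcripts were higher in 3 of 3 ammonium libraries, but none passed the test over the whole table. The test was limma on log2(CPM + 1) with Benjamini-Hochberg adjustment over all 46658 transcripts and a threshold of 0.05. The log2 differences below, ammonium minus control, are on that scale. Adding 1 slightly lowers the change of low transcripts, but every library has equal weight whatever its depth. For pp_201990 the log2 difference was 0.62 (SE 0.12, 95% interval 0.37 to 0.87) with an limma adjusted p of 0.0924, rank 53 by p among all transcripts. For pp_167571 it was 0.65 (SE 0.15, interval 0.34 to 0.97) with an limma adjusted p of 0.172. For pp_201570 it was 0.76 (SE 0.22, interval 0.30 to 1.23) with an limma adjusted p of 0.313. Over the whole table limma called 4 transcripts higher under ammonium, or 0.00857%, and 14 lower, or 0.03%, and the median log2 difference of all transcripts was 0.0043. Groups that do not overlap, with ammonium higher, were found for 7.16% of all transcripts, and the 3 transcripts described here belong to them. A log2 difference at least as large as theirs was found for 2.85% of all transcripts in the case of pp_201990, for 2.29% in that of pp_167571 and for 1.27% in that of pp_201570. As pp_167571 was listed only through a table that the study ordered by p, its place in these shares is not independent of the listing.

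The call differed between tests. On the recovered reads, the edgeR exact test gave adjusted p-values of 0.00614 for pp_201990, 0.0192 for pp_167571 and 0.0654 for pp_201570. Thus 2 of the 3 transcripts passed, against 0.242% of all transcripts called higher by this test. The study itself used edgeR on these libraries, and pp_167571 was listed only through its table ordered by p. The pass of pp_167571 is therefore not independent of that listing. The edgeR quasi-likelihood test passed pp_201990 alone, with an adjusted p of 0.0464, against 0.0622% of all transcripts called higher. DESeq2 did likewise, with an adjusted p of 0.0397 against 0.0557% of all transcripts. For pp_201570 the recovered reads gave smaller log2 differences than the 0.76 of limma. They were 0.62 with either edgeR test and 0.65 with DESeq2. The difference of pp_201570 moved most with a single library, from 0.76 to 0.46 on the log2 scale (limma adjusted p = 0.477) without C1, and pp_167571 passed limma without N1 (log2 difference 0.81, limma adjusted p = 0.0410). Without C1 and N1, the 2 shallowest libraries, which was tried after the values were seen, the log2 differences were 0.52, 0.51 and 0.69 for pp_201990, pp_201570 and pp_167571, and pp_167571 alone passed (limma adjusted p = 0.0130).

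**Figure D2:**
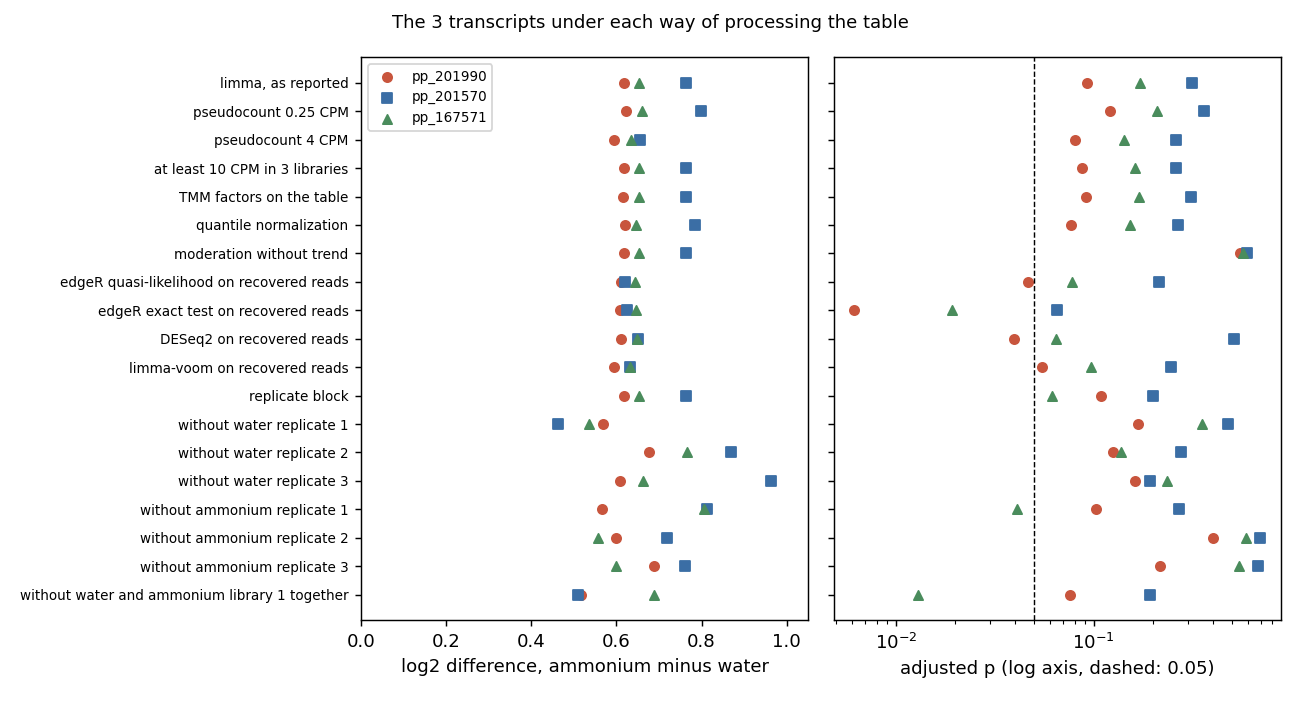
Log2 difference, ammonium minus water (left), and adjusted p on a log axis (right) for the 3 transcripts, each row 1 way of processing or 1 set of libraries, with the threshold of 0.05 dashed. All differences lie between 0.46 and 0.96, and the threshold is passed only by pp_201990 in the edgeR and DESeq2 rows and by pp_167571 in the edgeR exact row, without ammonium replicate 1 and without both libraries numbered 1.

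Each of the 3 transcripts is a form of an enzyme with other forms in the table, named by the study's annotation as alike, and 10 of 12 such forms were measured. The size of the log2 difference varied between the forms. The larger log2 differences were found in forms of low or middle abundance, but not every such form had one. The least abundant AGT2 form, pp_201988, had the smallest log2 difference of all 10 forms, 0.08. The most abundant form of AGT2 and that of asparaginase differed by less than 0.2 between groups. As no form passed the limma test, these are values without a call. The forms pp_167571, pp_167570 and pp_201989 were listed through a table that the study ordered by p, so their direction is not independent of the listing. Of the 7 forms listed for another reason, 2 had a positive difference with a limma p under 0.05 before adjustment, against 5 of all 10. This mark was reached by 4.1% of all transcripts with a positive difference. The 2 were pp_201990 and pp_201570, transcripts described here, so the count says nothing about their other forms. No other form listed for another reason reached the mark.

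Among the 4 AGT2 forms the most abundant was pp_201987, with 315 ± 19.0 CPM in control and 349 ± 18.5 CPM in ammonium roots (SD, n = 3) and a log2 difference of 0.15 (SE 0.10). Next came pp_201989, which was at 154 CPM in C1, 155 CPM in C2 and 137 CPM in C3, and at 201 CPM in N1, 221 CPM in N2 and 202 CPM in N3. Its groups did not overlap, with a log2 difference of 0.48 (SE 0.10) and an limma adjusted p of 0.147. The least abundant form, pp_201988, was at 42.2 to 46.8 CPM in control and 43.1 to 48.1 CPM in ammonium libraries, and its log2 difference was 0.08 (SE 0.12). The 4 forms together held 570 ± 19.3 CPM in control and 699 ± 25.9 CPM in ammonium roots (SD, n = 3). Of the gain in the means, pp_201989 held 59.3 CPM, pp_201987 held 34.1 CPM, pp_201990 held 33.6 CPM and pp_201988 held 2.51 CPM. The form with the largest log2 difference, pp_201990, thus added about as many CPM as the most abundant form, whose control level was 315 CPM against 61.7 CPM.

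The share of pp_201990 in the CPM of the 4 AGT2 forms was 9.75% in C1, 11.8% in C2 and 11.0% in C3. Under ammonium it was 14.2% in N1, 13.9% in N2 and 12.8% in N3. The groups did not overlap, but the Wilson 95% intervals of the neighbouring libraries C2 and N3 did, at 10.6 to 13.0% and 11.8 to 13.9%. These intervals cover counting error only, and that of C1, the shallowest library, spanned 7.85 to 12.1%. The mean share was 10.9% in control and 13.6% in ammonium roots, and the share of pp_201987 was 55.4% and 50.0%. An exact two-sided permutation test over the 6 libraries gave p = 0.10 for either share, the smallest that 3 against 3 libraries allow. Per read of pp_201987 there were 0.171 to 0.224 reads of pp_201990 in control and 0.253 to 0.289 in ammonium libraries. The ratio of pp_201990 to pp_201989 overlapped between groups, at 0.373 to 0.444 in control and 0.425 to 0.510 in ammonium libraries.

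**Figure D3:**
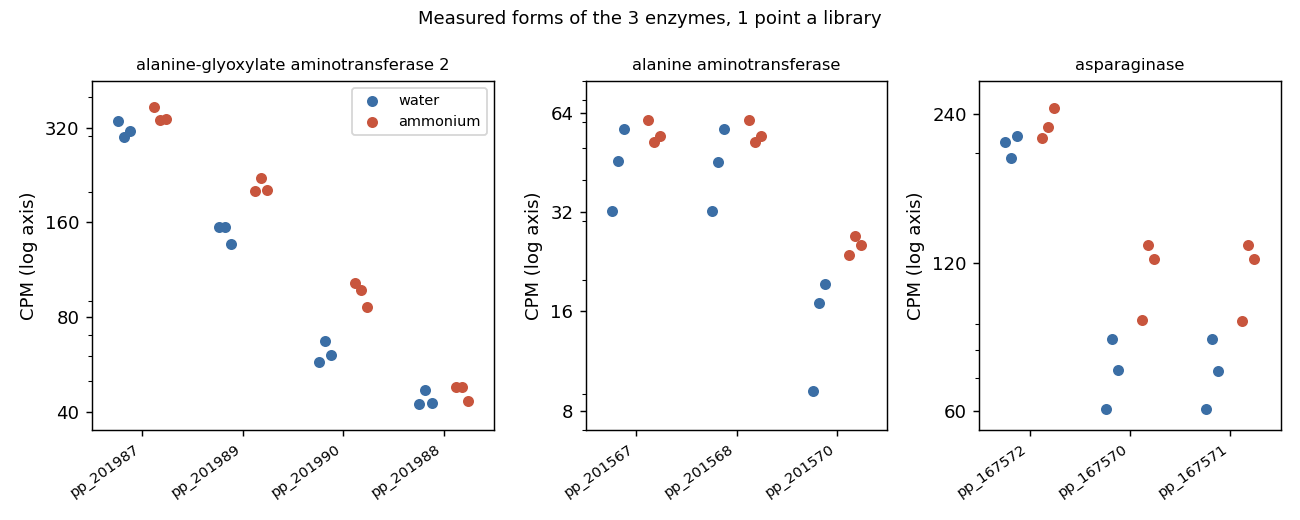
Level of the 10 measured forms of the 3 enzymes (CPM on a log y axis, 1 point a library, blue for water and red for ammonium, forms ordered by abundance). The groups of pp_201989, pp_201990, pp_201570, pp_167570 and pp_167571 are separated, those of pp_201987 only just, and those of the other 4 forms overlap.

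For alanine aminotransferase, pp_201567 and pp_201568 were measured beside pp_201570, while pp_201565 and pp_201571 were not measured and have no values. pp_201567 and pp_201568 held the same number of reads in 4 of 6 libraries and differed by at most 2 reads in the others, so that they cannot be counted as separate measurements. pp_201567 was at 32.2 CPM in C1, 45.8 CPM in C2 and 57.2 CPM in C3, and at 61.0 CPM in N1, 52.2 CPM in N2 and 54.4 CPM in N3. The groups overlapped, with C3 above N2 and N3, and the log2 difference was 0.34 (SE 0.17). Here too C1 was the lowest library. With pp_201567 and pp_201568 counted once, the share of pp_201570 was 24.9 ± 2.44% in control and 31.3 ± 3.13% in ammonium roots (SD, n = 3). With all forms summed, C1, C2 and C3 had 12.5%, 15.7% and 14.5%, while N1, N2 and N3 had 16.3%, 20.6% and 19.0%. The shares did not overlap, and C2 and N1 were close neighbours, with Wilson 95% intervals of 12.8 to 19.0% and 13.1 to 20.0%. The exact permutation p was 0.10, the smallest possible.

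For asparaginase all 3 listed forms were measured. pp_167570 and pp_167571 differed by at most 2 reads in any library, so that the level given above is shared by these identifiers. The most abundant form, pp_167572, was at 210 CPM in C1, 196 CPM in C2 and 217 CPM in C3. Under ammonium it was at 215 CPM in N1, 226 CPM in N2 and 247 CPM in N3. Its groups overlapped, since C3 lay above N1, and the log2 difference was 0.14 (SE 0.10, interval -0.07 to 0.36). The interval does not reach the 0.65 of pp_167571 but overlaps the interval of that form, 0.34 to 0.97. No test over the whole table was made of the difference between the forms. For the log2 ratio of pp_167571 to pp_167572 the exact permutation p was 0.20. With the near-identical identifiers counted once, the share of pp_167571 was 25.8 ± 3.88% in control and 33.2 ± 3.29% in ammonium roots (SD, n = 3). The shares overlapped, with 30.0% in C2 and 29.9% in N1, and the exact permutation p was 0.20. The qPCR primers printed above were thus assigned to the form with the larger log2 difference, and the SELECT oligonucleotides to the form whose groups overlapped.

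**Figure D4:**
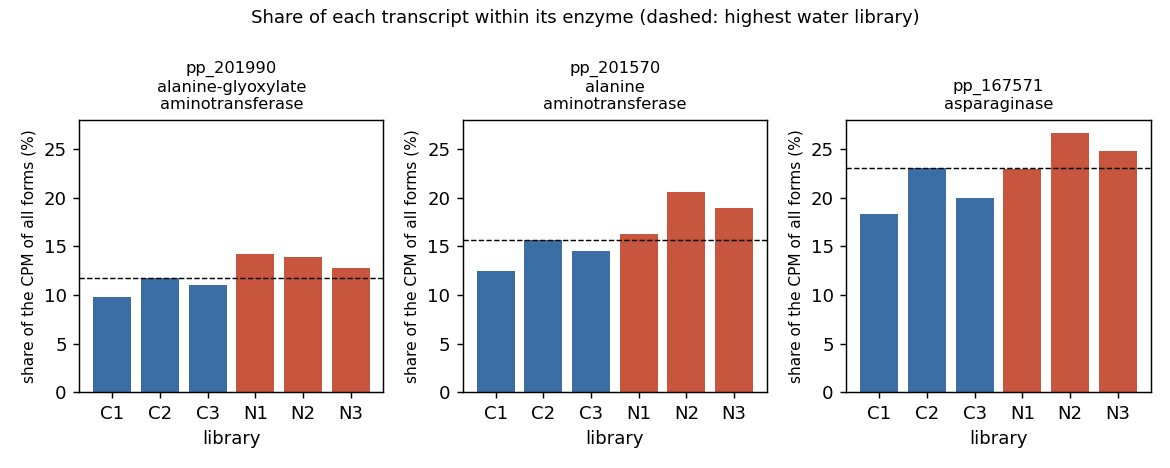
Share of pp_201990, pp_201570 and pp_167571 in the summed CPM of all measured forms of the same enzyme (percent on the y axis, 1 bar a library, blue for water and red for ammonium, dashed line at the highest control library). All ammonium bars exceed the line for pp_201990 and pp_201570, while for pp_167571 the N1 bar (23.0%) ends just under that of C2 (23.1%).

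The 3 transcripts had different places in the transcriptome by CPM, which count molecules read and were not divided by length. pp_167571 ranked 1743 of 46658 by its mean of 93.5 CPM, pp_201990 ranked 2150 with 78.5 CPM and pp_201570 ranked 9479 with 20.3 CPM. The control ranges of pp_167571 (60.6 to 83.9 CPM) and pp_201990 (57.5 to 66.9 CPM) overlapped, and so did their ammonium ranges, whereas pp_201570 was below both in every library. The order of libraries also differed. N2 was the highest library for pp_167571 and pp_201570, whereas N1 was the highest for pp_201990 and the lowest ammonium library for the other 2. Across the 6 libraries, with both groups included, Pearson r of log2(CPM + 1) was 0.87 between pp_201570 and pp_167571, 0.82 between pp_201990 and pp_167571 and 0.81 between pp_201990 and pp_201570. These values describe 6 points that share libraries and depth.

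Named transcripts with the most similar pattern were sought among transcripts that averaged 10 CPM or more and carry a name in the study's tables, 2257 or 2258 candidates, of which many are named because their p was small in the study. For pp_201990 they were a pair of HR-like lesion-inducing protein transcripts (pp_249614 and pp_249609), an alpha/beta-hydrolase (pp_114645), an RGPR-like protein (pp_58190) and a glutathione S-transferase (pp_105383), with Pearson r of 0.989 to 0.996 over 6 libraries. For pp_201570 they were a Rab5-interacting protein (pp_192052), the ribosomal protein L24 (pp_108977), the translation initiation factor IF6 (pp_153230), the multifunctional protein 2 of fatty acid beta-oxidation (pp_87488) and a nucleoside diphosphate kinase (pp_136734), with r of 0.984 to 0.996. For pp_167571 they were a ribosomal protein of the L2 family (pp_236928), an adenosine kinase (pp_205546), a subunit of the vacuolar ATPase (pp_203558), an SNF7 family protein of membrane sorting (pp_58932) and the aminopeptidase M1 (pp_119653), with r of 0.987 to 0.997. No transcript appeared for more than 1 of the 3, and none of these 15 passed limma, the smallest adjusted p being 0.0670 for pp_105383.

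The other aminotransferases all had smaller log2 differences than the 3 transcripts described here. Of 23 listed, 19 were measured and none passed limma in either direction, with a median log2 difference of 0.11 against 0.0043 for all transcripts. The AGT1 type of alanine-glyoxylate aminotransferase, represented by 2 identifiers with 29.9 and 30.5 CPM, had log2 differences of -0.00089 and 0.019. The 6 aspartate aminotransferase transcripts, which connect aspartate and glutamate, had log2 differences of 0.07 to 0.16. The 6 transcripts of the tyrosine aminotransferase family, among them pp_203925, pp_203926, pp_203927 and pp_203928, had log2 differences of 0.56 to 0.59 and limma adjusted p-values of 0.313 or more. They are known only from a table that the study ordered by p, so their direction is not independent of the listing. Of the 13 aminotransferases listed for another reason, 10 had positive and 3 negative differences, the median was 0.07, none had groups that did not overlap, and 1, the ornithine aminotransferase pp_218122, had a limma p under 0.05 before adjustment, a mark that 4.1% of all transcripts reached with a positive difference. Its log2 difference was 0.39 (limma adjusted p = 0.559). That transcript was singled out after its value was seen. Some identifiers counted in this list hold nearly the same reads, for example pp_197768 and pp_197769, or pp_203926, pp_203927 and pp_203928. Such identifiers are not separate measurements.

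In the amide list none of 4 transcripts passed limma. Asparagine synthetase (pp_85638), which makes the substrate of asparaginase, was at 140 CPM in C1, 123 CPM in C2 and 112 CPM in C3. Under ammonium it was at 103 CPM in N1, 119 CPM in N2 and 127 CPM in N3. The groups overlapped, with a log2 difference of -0.10 (SE 0.12) that became 0.072 without C1 and N1. The omega-amidase-like pp_57985, an amidase of the NIT2 type that is again listed only by its p, had 3.68 to 4.60 CPM in control and 6.17 to 8.56 CPM in ammonium libraries (log2 difference 0.72, limma adjusted p = 0.361). Its neighbour pp_57986 had a log2 difference of 0.20, and an asparagine-tRNA ligase (pp_132684) one of 0.11.

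Of the glyoxylate, glycine and serine list, which holds the steps that follow the glycine formed by alanine-glyoxylate aminotransferase, 10 of 12 were measured and none passed limma (median log2 difference 0.11). The lowest limma p-values were those of the serine hydroxymethyltransferases pp_124757 (log2 difference 0.47) and pp_124761 (0.23), the hydroxypyruvate reductase pp_209177 (0.63) and the P protein of glycine decarboxylase pp_245471 (-0.21), with adjusted p of 0.447 to 0.691. pp_124757 was at 45.7 to 57.9 CPM in control and 53.3 to 90.2 CPM in ammonium libraries and overlapped through N1. The isocitrate dehydrogenases, which supply 2-oxoglutarate, had 7 of 9 listed transcripts measured, none of which passed limma (median 0.16). Among them pp_153216, pp_153221 and pp_153223 had log2 differences of 0.16 to 0.17, and pp_52950, with a mean of 1.88 CPM, one of -0.66. The 3 listed transcripts of pyridoxal phosphate synthesis were not measured and have no values.

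In the list of glutamate and glutamine enzymes 1 of 23 measured transcripts passed limma, against the 0.00857% of all transcripts called higher. It was the NADH-dependent glutamate synthase pp_238920 (log2 difference 0.72, limma adjusted p = 0.0458), which is known only from the table ordered by p. Of the 15 listed for another reason, 0 passed, and 6 had a positive difference with a limma p under 0.05 before adjustment. That mark was reached by 4.1% of all transcripts. The 6 were identifiers of cytosolic glutamine synthetase (pp_68474, pp_68475, pp_68477, pp_68481 and pp_68484) and of NADH-dependent glutamate synthase (pp_238921). They are not separate measurements of 6 enzymes, and pp_68475 and pp_68484 held nearly the same number of reads. Moreover, pp_238921 was listed through the study's primers. The study ran RT-qPCR of this enzyme because its transcript was differentially expressed in these data, so that listing is not independent either. The cytosolic glutamine synthetase forms pp_68477, pp_68481 and pp_68486 had log2 differences of 0.99 to 1.34 without passing. The ammonium transporter AMT1.3 (pp_203543) was at 23.8 to 43.7 CPM in control and 38.0 to 48.7 CPM in ammonium libraries (log2 difference 0.48, limma adjusted p = 0.497).

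**Figure D5:**
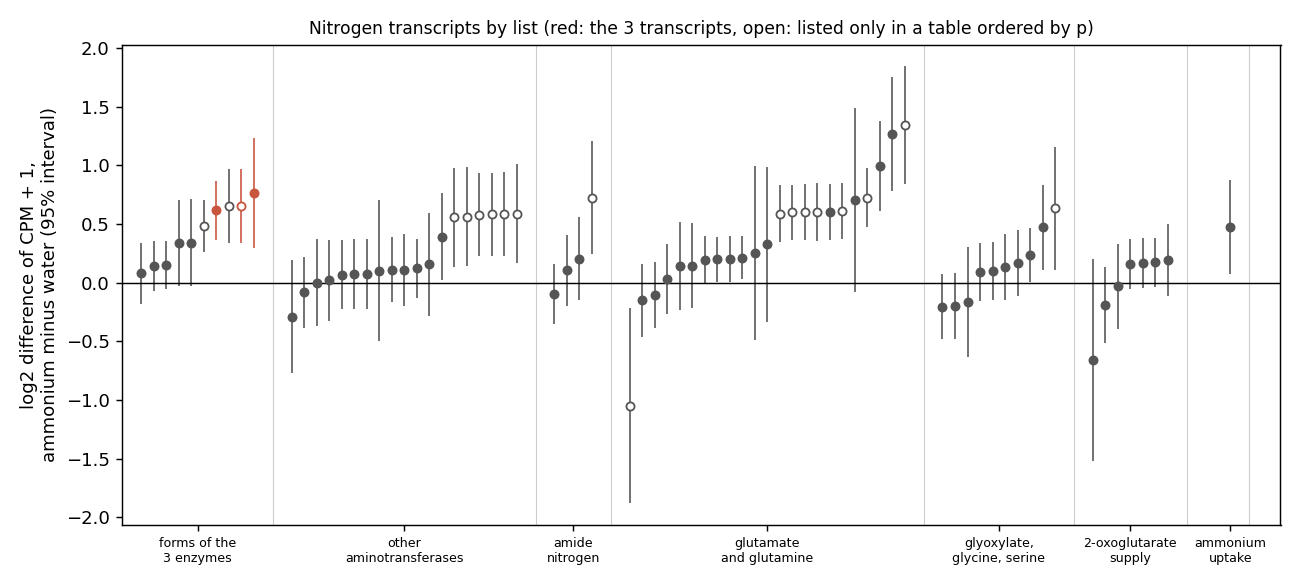
Log2 difference of CPM + 1, ammonium minus water, with 95% interval for each measured transcript of the nitrogen lists (1 point a transcript, sorted within lists, red for pp_201990, pp_201570 and pp_167571, open points for transcripts known only from a table ordered by p). The 10 forms of the 3 enzymes run from 0.08 to 0.76, and the filled points of the other aminotransferases run from -0.29 to 0.39.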

How the data were processed

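Per the study's methods, the authors called bases with Guppy, aligned reads to a root transcriptome with minimap2, and deposited CPM made with edgeR, keeping transcripts that reached 2 CPM in 2 or more samples. Program versions, and how reads that fit several forms were counted, were not given in the sources used here. Forms of an enzyme may share reads.

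From the deposited CPM, log2(CPM + 1) of all 46658 transcripts was fitted with limma 3.58.1 (trended moderation, 6 libraries, no covariate). Recovered reads are CPM divided by the smallest value of the library. All values (100%) came out whole within 1e-06, and on them edgeR 4.0.16 (quasi-likelihood and exact tests), DESeq2 1.42.0 and limma-voom were run as alternatives. The quasi-likelihood test called 29 transcripts higher and 85 lower, and the exact test 113 and 265, against 4 and 14 with limma. Other alternatives were pseudocounts of 0.25 and 4, a minimum of 10 CPM in 3 libraries, TMM and quantile scaling, moderation without trend, a replicate block and leaving out libraries. Scripts were tested on simulated data. The transcripts and lists were chosen with earlier results of these data known. Enzyme names come from the study's annotation tables. Named were the 3 transcripts, all their measured forms, up to 4 transcripts of each other list with the smallest limma p, and the 5 most similar patterns for each.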

Additional observations from a re-analysis of the deposited data

How the results depend on the processing

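The 3 transcripts kept a positive difference under all 18 alternatives, which gave log2 differences of 0.52 to 0.69 for pp_201990, 0.46 to 0.96 for pp_201570 and 0.53 to 0.81 for pp_167571, and adjusted p-values of 0.00614 to 0.548, 0.0654 to 0.695 and 0.0130 to 0.587. With limma 0 of 3 passed, against 1 with edgeR's quasi-likelihood test (pp_201990, log2 difference 0.61), 2 with the exact test (pp_201990, 0.61, and pp_167571, 0.65), 1 with DESeq2 (pp_201990, 0.61) and 1 without C1 and N1 together (pp_167571, 0.69). Leaving out 1 replicate at a time passed 0 to 1 of 3, with log2 differences of 0.56 to 0.69 for pp_201990, 0.46 to 0.96 for pp_201570 and 0.53 to 0.81 for pp_167571. The cause was not tested.

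Over all forms and pathway lists together, the count that passed was 1 with limma, 0 with a pseudocount of 0.25, 0 without the trend, 11 with edgeR's quasi-likelihood test, 14 with the exact test, 11 with DESeq2, 8 with limma-voom, 3 with the replicate block, 14 without C1 and N1 together, and 0 to 6 when 1 replicate was left out. These lists held 10, 19, 4, 23, 10, 7 and 1 measured transcripts, some of them near-identical or known only from the table ordered by p. Over the whole table of 46658, limma called 4 transcripts higher and 14 lower, 3 and 14 with a pseudocount of 0.25, and 0 of either without the trend. The quasi-likelihood test called 29 and 85, the exact test 113 and 265, DESeq2 26 and 57, and limma-voom 18 and 38. Calls numbered 11 and 38 with the replicate block, and 108 and 244 without C1 and N1. With 1 replicate left out they ranged from 0 to 21 and from 0 to 50. The sign turned for asparagine synthetase pp_85638 (0.072 without C1 and N1) and for the root aquaporin pp_198184, from -0.10 to 0.18 when 1 replicate was left out. The gain in share kept its direction under every alternative tried, with 2.21 to 3.23 percentage points for pp_201990, 3.40 to 5.56 for pp_201570 and 3.32 to 5.72 for pp_167571 when 1 replicate was left out.

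The replicate numbers gave no clear sign of pairing, but with 3 libraries in each group this cannot settle whether a number marks a run. Deviations from the group means of same-numbered libraries correlated at -0.01, 0.09 and -0.03 over 17832 transcripts with a mean of at least 10 CPM. C1 and C3 correlated best with another number, whereas C2 correlated best with N2. With the replicate block the log2 differences stayed at 0.62, 0.76 and 0.65 for pp_201990, pp_201570 and pp_167571, with limma adjusted p-values of 0.109, 0.199 and 0.0613, and 0 of 3 passed. In control libraries pp_201570 held 12 to 88 reads.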

Other observations

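Glutamate dehydrogenase, an enzyme that can join ammonium to 2-oxoglutarate or release it from glutamate, varied more within a group than between groups. This was singled out after the values were seen. The form pp_110730 was at 15.3 CPM in C1, 17.6 CPM in C2 and 10.8 CPM in C3, and at 7.47 CPM in N1, 29.0 CPM in N2 and 22.8 CPM in N3. N1 was thus the lowest of all 6 libraries and N2 the highest, and the log2 difference was 0.25 (SE 0.35, limma adjusted p = 0.876). N1 was also the lowest ammonium library for the asparaginase pp_167571. Glutamate decarboxylase pp_139009, listed only by its p, was at 2.30 CPM in C1, 2.66 CPM in C2 and 3.09 CPM in C3, and at 0 CPM in N1, 1.49 CPM in N2 and 1.25 CPM in N3, with a log2 difference of -1.05 and an limma adjusted p of 0.465. A count of 0 in N1 allows up to 0.974 CPM.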
